A study of Mus musculus with 8 samples.

Results

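The genes described are 32 named genes of glycolysis and of the response to low oxygen, taken by gene name from a count table of 54532 genes. They filled 33 rows, since Aldoa stands in the table under 2 identifiers, and all 33 rows were among the 18238 genes that passed the filter on low counts. The libraries came from whole orthotopic pancreatic tumours of C57BL/6 mice, grown from implanted KPC cells, a mouse line of pancreatic ductal adenocarcinoma. The TLQP21 group, 4 libraries, came from mice given for 2 weeks the peptide TLQP21, which is cut from the neurosecretory protein VGF. The Saline group, also 4 libraries, came from mice given saline for 2 weeks. Both groups carried KPC cells in the same strain, and the labels do not say whether the line is 1 clone. The labels give no dose, age or sex, and do not say whether each library is a separate animal, so that p-values measure the spread between these libraries. The series sought transcripts that accompany the slower tumour growth its submitters describe under the peptide.

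Glycolysis breaks glucose down to pyruvate in the cytosol, and lactate dehydrogenase turns pyruvate into lactate, which leaves the cell through monocarboxylate transporters. When oxygen is short, the prolyl hydroxylases of the Egln family no longer mark the factor HIF-alpha for destruction. The factor then binds hypoxia response elements, whose core reads ACGTG or GCGTG. The bound factor raises transcription of the glucose transporter, most glycolytic enzymes and genes for acid export, matrix synthesis and mitophagy. Pancreatic ductal adenocarcinomas are known as poorly perfused tumours in which this response is commonly active. HIF-alpha itself is controlled mainly as a protein, so the level of the Hif1a transcript need not follow the activity of the factor.

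Summed counts ran from 29027480 to 33536087 in the TLQP21 libraries and from 28358465 to 28963457 in the Saline libraries. The 6 keratin, Epcam and Cdh1 markers listed for tumour epithelium summed to 6324 to 6638 CPM in TLQP21 and 5869 to 6362 CPM in Saline. Epithelial transcripts were thus present in every library, but these markers do not tell cancer cells from epithelium of the host pancreas. Acinar enzymes of the host pancreas summed to 10694 to 28444 CPM in TLQP21 and 11044 to 51189.8 CPM in Saline. Hepatocyte markers summed to 5.58 to 8.57 CPM in TLQP21 and 7.96 to 4041 CPM in Saline, the highest sum being that of Saline 2, with 9.27 CPM as the next highest. Xist RNA marked libraries 1 and 2 of each group and Y-linked transcripts marked libraries 3 and 4, a split that the labels do not give. The tumours were sequenced in bulk, so fewer cells of a type and less RNA per cell cannot be told apart.

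Between TLQP21 and Saline tumours, none of the 33 rows passed an adjusted p of 0.05 in edgeR's quasi-likelihood test, in either direction. Over all 18238 tested genes the share called was likewise 0% higher and 0% lower, with 145 higher (0.795%) and 413 lower (2.26%) at an unadjusted p under 0.05, and of the 33 rows 0 were under it. DESeq2 called 4 genes and limma's voom 1, all lower in TLQP21, and neither called any of the rows. The smallest adjusted p among the rows was 0.9999. No row had groups whose CPM did not overlap, where 0.811% of all tested genes had higher and 0.844% lower TLQP21 values without overlap. CPM are counts per 1000000 of the summed counts of the tested genes after trimmed-mean (TMM) scaling, and every log2 fold change is that of TLQP21 over Saline.

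The fold changes were small, with narrow intervals for most rows. Of the 33 rows, 10 had a log2 fold change above 0 and 23 below 0, with a median of -0.05, beside 49.4% below 0 and a median of 0.00 over all tested genes. For 31 of the 33 rows the approximate 95% interval stayed short of a 2-fold difference either way, as it did for 79.6% of all tested genes. For 23 rows, and for 55.1% of all tested genes, it lay within 1.5-fold. The exceptions at 2-fold were Gapdh and Pfkfb3. The tilt below 0 moved with single libraries: without Saline 1 the count below 0 was 15 of 33 and the median 0.03, and without Saline 3 the count was 26 and the median -0.16. Without Saline 3, 5 rows (15.2%) had an unadjusted p under 0.05, all with values below 0, beside 4.08% of all genes tested in that fit in either direction, and none passed the adjusted threshold. Within the libraries with Xist, which include Saline 1, 28 rows were below 0. Within those with Y-linked transcripts, which include Saline 3, 12 rows were below 0. The shares of all tested genes below 0 within each kind were not computed. A test of the difference between the 2 kinds called 0 of the rows (smallest adjusted p = 0.842 by edgeR) and 0 of all tested genes. Unadjusted, 2 rows (6.06%), Car9 (0.00495) and Eno2 (0.0314), were under 0.05 in that test, beside 4.8% of all tested genes.

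**Figure D1:**
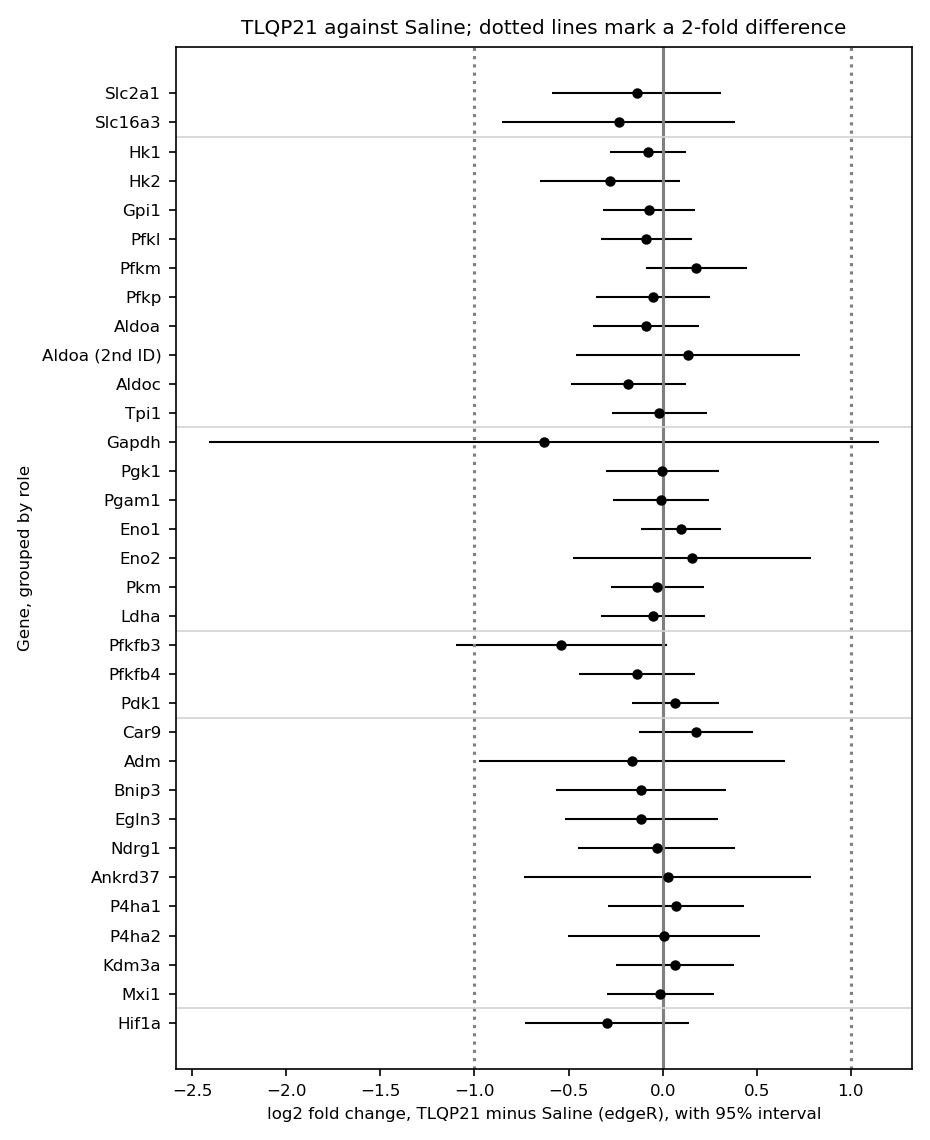
Log2 fold change of each row, TLQP21 minus Saline, with its approximate 95% interval from edgeR (x axis), for the 32 genes ordered by role (y axis). All intervals include 0, that of Pfkfb3 by the smallest margin with an upper bound of 0.02, and that of Gapdh runs from -2.41 to 1.15.

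Glucose enters the tumour cell mainly through the transporter encoded by Slc2a1, and lactate leaves through the monocarboxylate transporter encoded by Slc16a3. Slc2a1 had 238, 192, 197 and 239 CPM in TLQP21 libraries 1 to 4, against 275, 245, 142 and 290.2 CPM in Saline libraries 1 to 4. Saline held both the highest and the lowest library, and all TLQP21 values lay between them. The log2 fold change was -0.14 (SE 0.20, 95% interval -0.59 to 0.31), with -0.28 as the difference among Xist libraries and 0.09 among Y-linked ones. Slc16a3 ran over 144 to 328 CPM in TLQP21 and 179 to 362 CPM in Saline, with the lowest values in TLQP21 4 and Saline 3, and a log2 fold change of -0.23 (SE 0.28). Without TLQP21 4 that was -0.0381, and without Saline 3 it was -0.42.

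The upper steps of the pathway spend ATP to trap and split glucose. Hk2, the inducible hexokinase of many tumours, had 260.0, 203, 195 and 213 CPM in TLQP21 libraries 1 to 4, against 307, 256, 185 and 310.1 CPM in Saline libraries 1 to 4. Saline 1 and Saline 4 were highest and Saline 3 lowest, so the TLQP21 range lay inside that of Saline. Its means were 218 ± 29.1 CPM in TLQP21 and 265 ± 58.3 CPM in Saline (SD, n = 4 each), with a log2 fold change of -0.28 (SE 0.17, 95% interval -0.65 to 0.09) and an unadjusted p of 0.126 by edgeR. Hk1, the constitutive hexokinase, was nearly level at 147 to 161 CPM in TLQP21 and 150.0 to 187 CPM in Saline. Per length, Hk2 made up 66.5 ± 3.15% in TLQP21 and 69.3 ± 3.897% in Saline of the sum of Hk1 and Hk2.

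Among the phosphofructokinases, which catalyse the committed step, the muscle-type Pfkm stood opposite to the others. Pfkm had 43.3, 49.02, 55.3 and 56.6 CPM in TLQP21 libraries 1 to 4, against 39.7, 41.8, 51.7 and 47.2 CPM in Saline libraries 1 to 4. Its groups overlapped, with a log2 fold change of 0.18 (SE 0.12) and 0.18 as the difference among Xist libraries and 0.18 among Y-linked ones. Saline 1, the highest library for 14 of the rows, had the lowest Pfkm. The liver-type Pfkl (-0.09, 229.6 to 243 CPM in TLQP21 and 203 to 281 CPM in Saline) and the platelet-type Pfkp (-0.05, 161 to 191 CPM in TLQP21 and 133 to 207 CPM in Saline) lay on the other side of 0. As shares of the 3 genes per length, Pfkm took 23.97 ± 2.62% in TLQP21 and 21.2 ± 4.44% in Saline, Pfkl 55.7 ± 1.51% in TLQP21 and 58.2 ± 2.47% in Saline and Pfkp 20.3 ± 1.600% in TLQP21 and 20.7 ± 2.32% in Saline. The Pfkm share was 27.7% in Saline 3 against 17.99 to 26.4% elsewhere, and the ranges of the groups overlapped for all 3 shares. Markers of skeletal muscle, which carries much Pfkm, summed to 0.371 to 1.702 CPM over all 8 libraries, with Ckm at 0 in all 4 TLQP21 libraries and at most 0.189 CPM in Saline.

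Aldolase splits the trapped hexose, and Gpi1 and Tpi1 interconvert sugar phosphates before and after it. Aldoc, the aldolase of brain, had 41.7, 53.1, 43.1 and 33.8 CPM in TLQP21 libraries 1 to 4, against 52.5, 52.7, 44.6 and 45.4 CPM in Saline libraries 1 to 4. TLQP21 4 was lowest and TLQP21 2 highest, so the Saline values lay between TLQP21 libraries (log2 fold change -0.18, SE 0.14). The main Aldoa row, the aldolase of muscle and most tumours, ran over 727 to 876 CPM in TLQP21 and 675 to 936 CPM in Saline, and Aldoc was 4.49 ± 0.608% in TLQP21 and 4.85 ± 0.556% in Saline of Aldoa plus Aldoc per length. The second Aldoa row (ENSMUSG00000114515), whose span begins upstream of the main row on the same strand, held only 20 to 43 counts per library. Gpi1 had a log2 fold change of -0.07 (SE 0.11) and Tpi1 one of -0.02 (SE 0.11), each with the TLQP21 range inside that of Saline. The sign for Tpi1 turned on library totals and with voom.

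**Figure D2:**
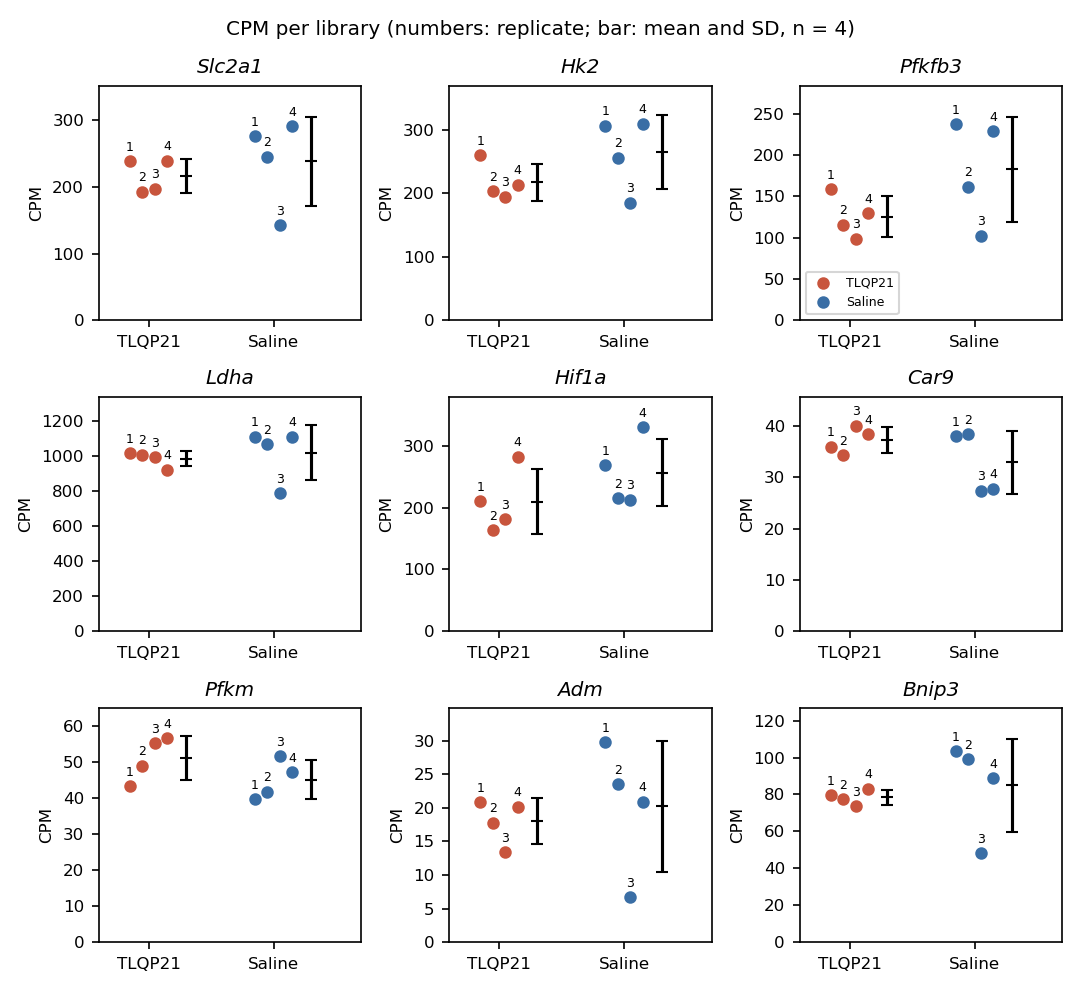
CPM (y axis, from 0) in each TLQP21 and Saline library for 9 of the genes, with the replicate number beside each point and the mean and SD (n = 4) as a bar. Saline 3 is the lowest library for Slc2a1, Hk2, Ldha, Car9, Adm and Bnip3, whereas the TLQP21 libraries keep together for Ldha and Bnip3.

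The lower steps recover ATP and end in lactate. Eno1, the enolase of most tissues, had 1026, 1077, 1159 and 1091 CPM in TLQP21 libraries 1 to 4, against 1031, 971, 947 and 1119.5 CPM in Saline libraries 1 to 4. The groups overlapped, with the highest value in TLQP21 3 and the lowest in Saline 3 (log2 fold change 0.10, SE 0.10). Its reads can be split with Eno1b, a retrotransposed copy that held 624 to 887 counts per library, against 27600 to 37418 for Eno1. Eno2, the neuronal and neuroendocrine enolase, was scarce at 3.61 to 9.27 CPM in TLQP21 and 4.805 to 5.64 CPM in Saline and was highest in TLQP21 1, at 9.27 CPM. Islet and neuroendocrine markers summed to 181 to 267 CPM in TLQP21 and 109 to 388 CPM in Saline, and their part in the Eno2 values was not tested.

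Ldha, the lactate dehydrogenase subunit favoured in tumours, had 1017, 1008, 994 and 924 CPM in TLQP21 libraries 1 to 4, against 1112, 1070.1, 790.1 and 1111 CPM in Saline libraries 1 to 4. Apart from Saline 3, the Saline libraries were above every TLQP21 library, and Saline 3 was below all of them. The log2 fold change was -0.05 (SE 0.12, 95% interval -0.33 to 0.23). Without Saline 3 it was -0.154, and without Saline 1 it was -0.00561. Ldhb, the subunit favoured in heart, made up 1.301 ± 0.267% in TLQP21 and 1.28 ± 0.499% in Saline of Ldha plus Ldhb per length. Pkm, pyruvate kinase, was the most abundant gene of the set per length, at 343 CPM per kilobase over the 8 libraries, ahead of Ldha at 303, Aldoa at 288, Tpi1 at 271 and Pgk1 at 251. Fold changes were -0.03 for Pkm, -0.0012 for Pgk1, the ATP-forming phosphoglycerate kinase, and -0.01 for Pgam1, phosphoglycerate mutase, on the log2 scale. The sign turned for Pgk1 and Pgam1 under upper-quartile scaling and on library totals.

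Gapdh, the dehydrogenase often used as a reference gene, behaved unlike its neighbours in the pathway. Gapdh had 46.3, 224, 33.3 and 40.8 CPM in TLQP21 libraries 1 to 4, against 273, 187, 43.7 and 29.01 CPM in Saline libraries 1 to 4. TLQP21 2, Saline 1 and Saline 2 were high and the other 5 libraries low, a split that did not follow the treatment. All 3 high libraries carried Xist and all 4 Y-linked libraries were low, whereas TLQP21 1 carried Xist and was low. The highest library had 9.403 times the CPM of the lowest, where Pgk1 differed 1.58-fold and Pgam1 1.37-fold. Per length, with 4.133 kilobases as the deposited length, Gapdh was at 7.02 to 66.00 CPM per kilobase, and Pgk1 at 187 to 295 CPM per kilobase. The log2 fold change of -0.63 had an SE of 0.80. It was -0.378 with the sex-linked split as a covariate, -1.73 without TLQP21 2 and -0.0101 without Saline 1. Mouse Gapdh has many near-identical processed copies and the handling of reads with several matches is not given in the sources used here, so its counts are uncertain. The part of such reads in the split was not tested. Of the rows named as such copies, Gapdh-ps14 and Gapdh-ps15 held 8 and 18 counts over all libraries, and Gapdhs, the enzyme of sperm, 59 to 140 counts per library.

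**Figure D3:**
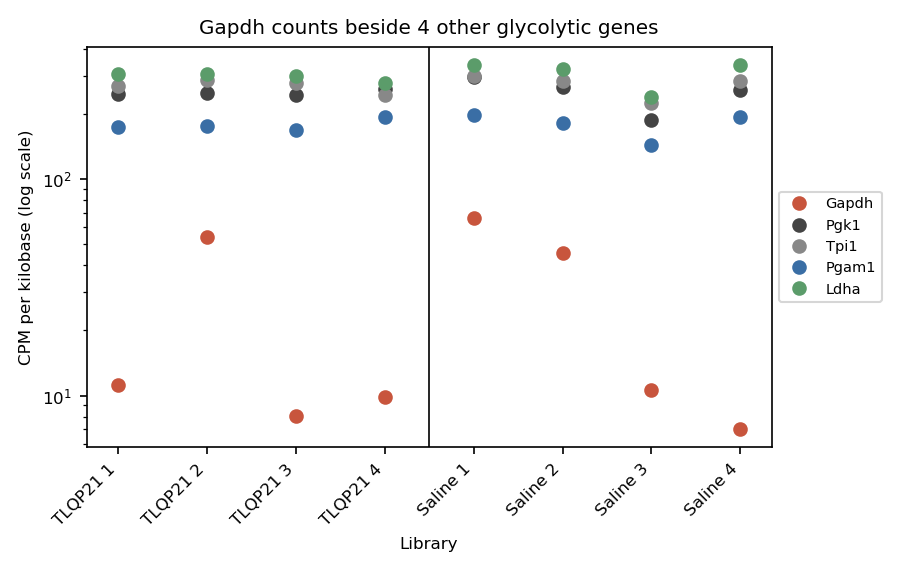
CPM per kilobase (log axis) of Gapdh and of 4 other glycolytic genes in each library, TLQP21 left and Saline right of the line. Gapdh lies at 45.3 to 66.0 in TLQP21 2, Saline 1 and Saline 2 and at 7.02 to 11.2 in the other 5 libraries, while the other 4 genes stay between 144 and 336.

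The regulatory kinases set the flow through these steps. Pfkfb3, which makes the sugar bisphosphate that activates phosphofructokinase, came closest to the threshold and had 158, 116, 98.8 and 129.7 CPM in TLQP21 libraries 1 to 4, against 237, 161, 103 and 229 CPM in Saline libraries 1 to 4. Saline 1 and Saline 4 were highest, whereas Saline 3 lay among the TLQP21 values. The means were 126 ± 25.2 CPM in TLQP21 and 183 ± 63.2 CPM in Saline (SD, n = 4 each). The log2 fold change was -0.54 (SE 0.25, 95% interval -1.10 to 0.02), with -0.53 as the difference among Xist libraries and -0.44 among Y-linked ones. Its unadjusted p was 0.0575 and its adjusted p 0.9999 by edgeR. Over the alternatives run, its adjusted p ran from 0.395, by limma's voom, to 1. Its unadjusted p was 0.0111 by voom and 0.0339 by DESeq2. By edgeR it was 0.00938 with a replicate block and 0.0373 without a filter on low counts. It was 0.0602 to 0.0676 by edgeR under other scalings and 0.0604 with a stricter filter. Without Saline 3 the log2 fold change was -0.735, and without Saline 1 it was -0.386.

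Neutrophils and macrophages also use Pfkfb3. All 8 neutrophil markers had means below those of Saline, with sums of 294 to 571 CPM in TLQP21 and 474 to 1294 CPM in Saline, and 6 of 7 macrophage markers did, with sums of 1025 to 1566 CPM in TLQP21 and 1291 to 1418 CPM in Saline. The neutrophil sum was highest in Saline 4 and the macrophage sum in TLQP21 1, and the part of these cells in the Pfkfb3 values was not tested. Pfkfb4, the paralogue induced in many tumours, had 35.6, 37.5, 28.96 and 31.04 CPM in TLQP21 libraries 1 to 4, against 37.5, 35.3, 29.5 and 44.1 CPM in Saline libraries 1 to 4. Saline 4 was highest and TLQP21 3 lowest (log2 fold change -0.14, SE 0.14). Pfkfb4 made up 29.4 ± 3.56% in TLQP21 and 24.7 ± 4.698% in Saline of Pfkfb3 plus Pfkfb4 per length, and the ranges of the groups overlapped. Pdk1, which holds pyruvate back from oxidation within the mitochondria, had 120.3, 135, 122 and 158 CPM in TLQP21 libraries 1 to 4, against 136, 130.0, 120.3 and 124 CPM in Saline libraries 1 to 4. Only TLQP21 4 stood above the rest, and the groups overlapped (log2 fold change 0.07, SE 0.10).

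Car9, a carbonic anhydrase of the tumour cell surface and a widely used marker of hypoxia, had 35.99, 34.3, 40.1 and 38.4 CPM in TLQP21 libraries 1 to 4, against 38.02, 38.4, 27.4 and 27.8 CPM in Saline libraries 1 to 4. Saline 3 and Saline 4 were lowest, whereas Saline 1 and Saline 2 lay within the TLQP21 range. The log2 fold change was 0.18 (SE 0.14, 95% interval -0.13 to 0.48), with -0.12 as the difference among Xist libraries and 0.50 among Y-linked ones. Of the 10 hypoxia targets outside glycolysis, 5 had log2 fold changes above 0 and 5 below 0, with a median of 0.00 and a range from -0.16 for Adm to 0.18 for Car9. The intervals of all 10 lay within 2-fold.

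For several of the remaining targets both extremes lay in Saline. Adm, a vasodilator peptide, had 20.9, 17.8, 13.4 and 20.2 CPM in TLQP21 libraries 1 to 4, against 29.7, 23.5, 6.69 and 20.9 CPM in Saline libraries 1 to 4. Ankrd37, a small ankyrin-repeat protein, had 16.2, 12.7, 8.87 and 13.4 CPM in TLQP21 libraries 1 to 4, against 19.2, 13.8, 5.18 and 12.1 CPM in Saline libraries 1 to 4. P4ha2, a prolyl hydroxylase of collagen, had 92.3, 82.4, 75.5 and 87.3 CPM in TLQP21 libraries 1 to 4, against 109.8, 85.3, 44.4 and 96.6 CPM in Saline libraries 1 to 4. In each of these the lowest library was Saline 3 and the highest Saline 1, and all TLQP21 values lay in between. Bnip3, a mitophagy receptor, showed the same order of extremes with 79.7, 77.5, 73.7 and 83.1 CPM in TLQP21 libraries 1 to 4, against 103, 99.1, 48.3 and 88.8 CPM in Saline libraries 1 to 4. Adm, Ankrd37, P4ha2, Bnip3 and Gapdh were picked for values in every library after these had been seen.

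Egln3, the oxygen-sensing hydroxylase that is itself induced by hypoxia, ran over 156 to 184 CPM in TLQP21 and 119 to 240.0 CPM in Saline (log2 fold change -0.11, SE 0.18). P4ha1, the other collagen hydroxylase, ran over 173 to 239 CPM in TLQP21 and 135 to 221 CPM in Saline, and P4ha2 was 22.3 ± 1.99% in TLQP21 and 22.4 ± 3.14% in Saline of their sum per length. Fibroblast markers, from cells that make much of the collagen, summed to 5529.8 to 7985 CPM in TLQP21 and 5406 to 11117 CPM in Saline, and their part in P4ha1 and P4ha2 was not tested. Ndrg1, a stress-response protein, ran over 254 to 405 CPM in TLQP21 and 232 to 363 CPM in Saline. Kdm3a, a histone demethylase, ran over 138 to 196 CPM in TLQP21 and 137 to 183 CPM in Saline, and Mxi1, an antagonist of Myc, over 62.2 to 82.5 CPM in TLQP21 and 59.9 to 84.2 CPM in Saline. Their log2 fold changes were 0.07 for P4ha1, -0.03 for Ndrg1, 0.07 for Kdm3a and -0.01 for Mxi1. The signs of all 4 turned when single libraries were left out.

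Hif1a, which encodes the alpha subunit of the factor, had 209.9, 163, 181 and 282 CPM in TLQP21 libraries 1 to 4, against 269, 215, 213 and 329 CPM in Saline libraries 1 to 4. Saline 4 and TLQP21 4 were highest, TLQP21 2 was lowest, and the groups overlapped. The means were 209 ± 52.5 CPM in TLQP21 and 257 ± 54.8 CPM in Saline (SD, n = 4 each), with a log2 fold change of -0.29 (SE 0.19, 95% interval -0.73 to 0.14) and -0.38 as the difference among Xist libraries and -0.23 among Y-linked ones. Without Saline 4 it was -0.156 and without TLQP21 4 it was -0.477. Hif1a lies on chromosome 12 from 73901375 to 73947530 of GRCm38 and Pfkfb3 on chromosome 2 from 11471433 to 11554077, both as protein-coding genes.

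Single libraries stood apart across many of the rows at once. Saline 3 was the lowest library for 21 of the 33 rows (63.6%), and for 11.4% of all tested genes. Saline 1 was the highest for 14 rows (42.4%), against 8.28% of all tested genes, and Saline 4 for 9 rows (27.3%), against 16.5%. Over all tested genes TLQP21 4 was the most extreme library, highest for 26.8% and lowest for 27.2%. It was highest for 5 rows (15.2%) and lowest for 4 rows (12.1%). On library totals without TMM scaling, Saline 4 was highest for 3 rows (9.09%), Saline 1 for 20 rows (60.6%), and Saline 3 was lowest for 19 rows (57.6%). The shares over all tested genes were not computed on library totals. In Saline 3 the median row stood at 80.4% of its own median over the 8 libraries, against 100.2% for all tested genes. In Saline 1 it stood at 115%. In the TLQP21 libraries the same value lay between 92.5 and 99.8%. These shares describe the libraries, since no library stands for a condition by itself.

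The depth of the dip in Saline 3 was unequal among roles. The hypoxia targets outside glycolysis were lowest in Saline 3 in 9 of 10 cases, with a median of 67.8%, and the exception was Kdm3a. The deepest were Adm at 32.6% of its median over the libraries, Ankrd37 at 39.7%, P4ha2 at 51.4%, Slc16a3 at 57.2%, Bnip3 at 59.3% and Slc2a1 at 59.7%. Enzymes were closer to their medians, with 83.5% for the upper steps and 83.4% for the lower steps, Eno1 at 89.9% and Pkm at 83.4%. Hif1a was at 99.4% and Pfkm at 107% in the same library. In Saline 3 the erythroid markers were highest, at 1308 CPM against 299.7 to 843 CPM elsewhere, and the islet markers lowest, at 109 CPM against 179 to 388 CPM. Its epithelial sum was 5869 CPM, the lowest of the 8, and its acinar sum 13184 CPM lay within the range of the others. The part of these cells in the dip was not tested.

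**Figure D4:**
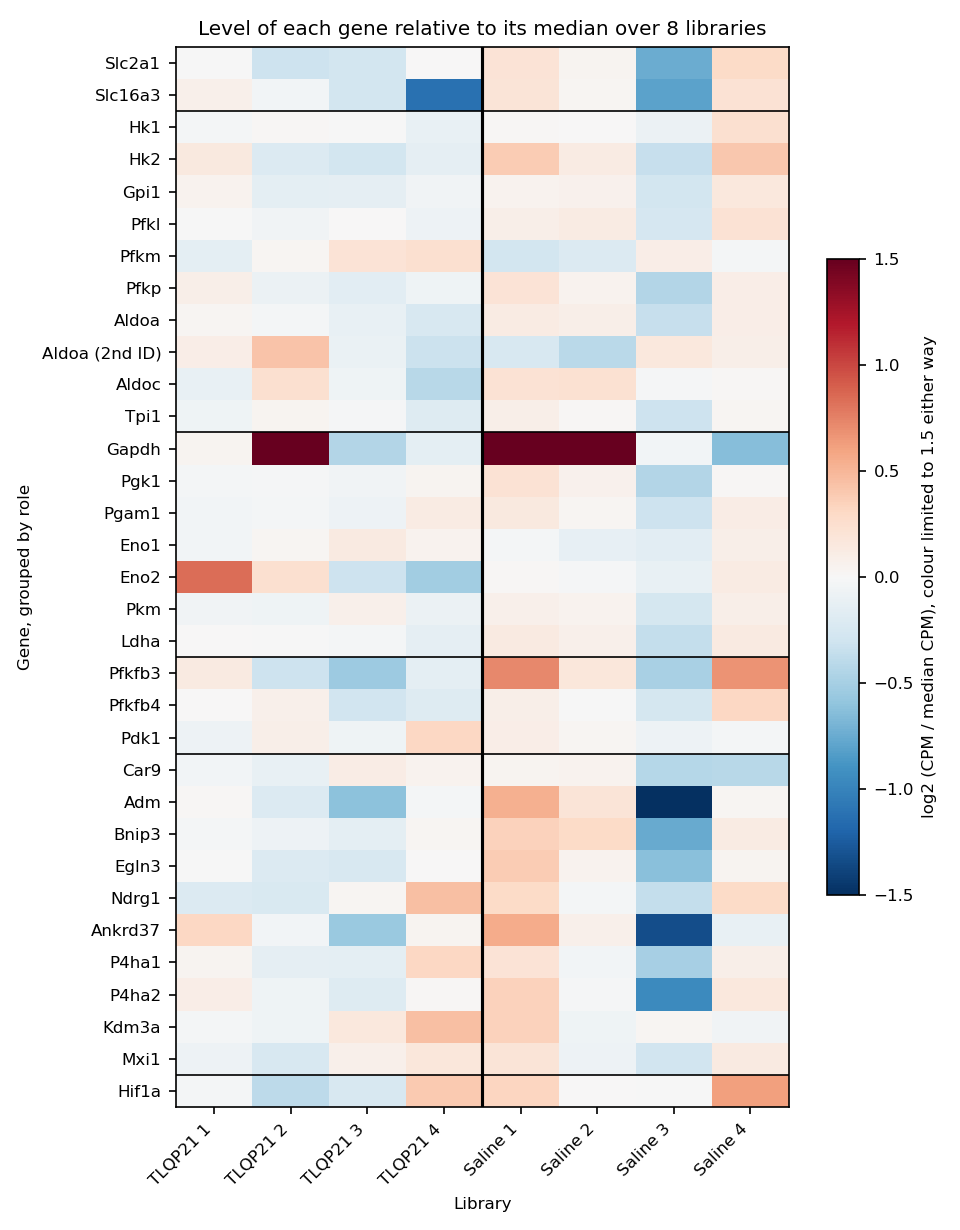
Level of each row relative to its own median over the 8 libraries (colour, log2 scale, limited to 1.5 either way), with TLQP21 libraries left and Saline libraries right of the line and genes grouped by role. The Saline 3 column is the lowest one for 9 of 10 hypoxia targets, with Adm at 32.6% of its median, and Gapdh stands out in TLQP21 2, Saline 1 and Saline 2.

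**Figure D5:**
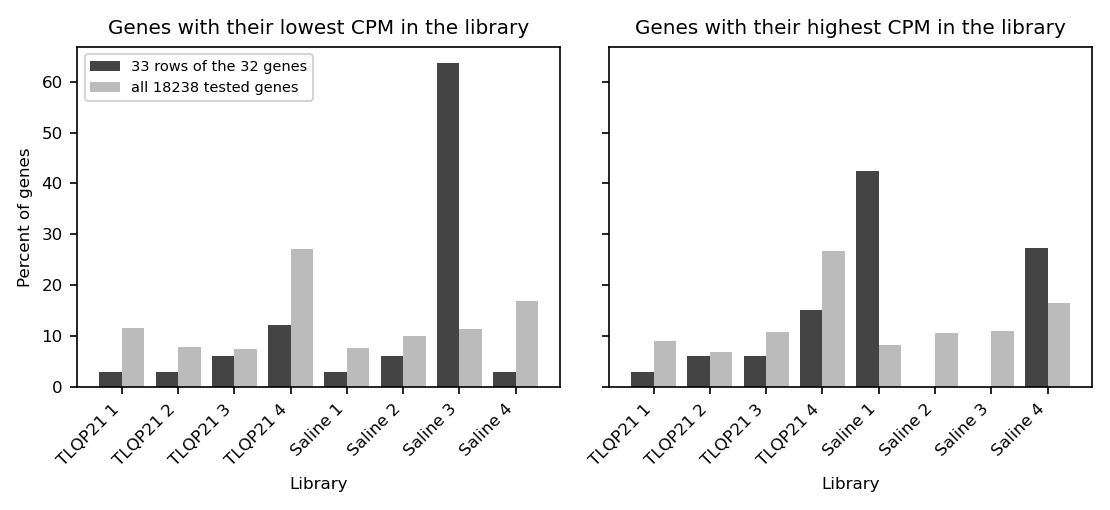
Percent of genes (y axis, from 0) that have their lowest or highest CPM in each library, for the 33 rows and for all 18238 tested genes. Saline 3 holds the lowest value of 63.6% of the rows and Saline 1 the highest value of 42.4%.

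As both extremes often fell in Saline, the TLQP21 libraries often lay between Saline libraries. For 18 of the 33 rows (54.5%) the TLQP21 range lay wholly inside that of Saline, against 18.2% of all tested genes. The reverse held for 3 rows (9.09%), against 25.9% of all tested genes. Among the 18 were Slc2a1, Hk2, Pgk1, Ldha, Pkm, Egln3, Bnip3 and Adm. The count of 18 rested on Saline 3: without it the TLQP21 range lay inside in 1 of 33 rows (3.03%), against 10.6% of all tested genes. With each of the other libraries left out in turn, which was tried after seeing the data, the count was 13 to 23. These counts were 39.4 to 69.7% of the rows, against 10.5 to 37.6% of all tested genes. Both shares were highest without TLQP21 4.

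The promoters were searched for the ACGTG form of the core of the hypoxia response element, since several of these genes are known targets of the factor. The GCGTG form was not searched. The letters ACGTG, searched on both strands in the 250 bases before the start site, were found in 15 of the 31 genes with a RefSeq entry (48.4%) and in 20.7% of the 12322 tested genes with one. Ndrg1 had no entry. For a gene with several start sites the one nearest the start in the count table was taken. By role the letters stood before 6 of 9 hypoxia targets, 3 of 7 genes of the lower steps and 2 of 9 of the upper steps. A match is a run of letters and not a shown binding site. The list was drawn up from genes of glycolysis and the hypoxia response, so its share of matches is no test of the dip. The part of the factor in the dip was not tested. Adm, the lowest of all in Saline 3, has no ACGTG in this window. The sequences shown are its own and those of the 4 genes with a match that stood lowest in that library. They are from RefSeq on GRCm38.p6, with the motif in capitals: Ankrd37 at chr8:45999851-46000100 on the minus strand, P4ha2 at chr11:54100674-54100923 on the plus strand, Slc16a3 at chr11:120948817-120949066 on the plus strand, Bnip3 at chr7:138909507-138909756 on the minus strand and Adm at chr7:110627407-110627656 on the plus strand. The RefSeq start lay 5857 bases from the start in the count table for Ankrd37, 829 for P4ha2, 587 for Slc16a3, 13 for Bnip3 and 4 for Adm.
Ankrd37: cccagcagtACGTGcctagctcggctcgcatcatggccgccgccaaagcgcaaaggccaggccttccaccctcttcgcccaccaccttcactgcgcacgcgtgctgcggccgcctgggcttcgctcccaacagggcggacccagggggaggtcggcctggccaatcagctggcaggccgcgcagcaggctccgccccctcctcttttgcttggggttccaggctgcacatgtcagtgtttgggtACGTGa
P4ha2: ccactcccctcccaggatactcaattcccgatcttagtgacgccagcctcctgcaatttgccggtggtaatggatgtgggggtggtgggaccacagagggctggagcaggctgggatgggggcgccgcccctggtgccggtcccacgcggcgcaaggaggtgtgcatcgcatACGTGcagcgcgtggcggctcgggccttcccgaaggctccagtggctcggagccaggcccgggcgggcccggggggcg
Slc16a3: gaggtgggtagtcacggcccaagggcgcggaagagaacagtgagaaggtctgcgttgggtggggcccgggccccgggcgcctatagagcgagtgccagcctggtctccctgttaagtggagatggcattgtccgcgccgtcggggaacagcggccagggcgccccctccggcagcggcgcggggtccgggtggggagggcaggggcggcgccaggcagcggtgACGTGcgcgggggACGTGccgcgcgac
Bnip3: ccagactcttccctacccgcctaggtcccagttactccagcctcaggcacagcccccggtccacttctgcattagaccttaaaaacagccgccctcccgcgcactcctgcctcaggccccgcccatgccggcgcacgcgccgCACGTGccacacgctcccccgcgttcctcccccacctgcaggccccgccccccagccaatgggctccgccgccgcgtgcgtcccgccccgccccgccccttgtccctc
Adm: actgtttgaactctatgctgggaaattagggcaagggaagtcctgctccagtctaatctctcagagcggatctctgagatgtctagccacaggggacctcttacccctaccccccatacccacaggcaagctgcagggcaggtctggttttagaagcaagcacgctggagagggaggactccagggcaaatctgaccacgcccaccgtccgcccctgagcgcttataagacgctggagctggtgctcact

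In Ankrd37 and Slc16a3 the letters occurred at 2 places each, and the capitals in Bnip3 read CACGTG, a palindrome that matches on both strands and that also serves basic helix-loop-helix factors such as Myc. In P4ha2 they occurred at 1 place. Members without the letters ACGTG in this window included Adm and Pdk1, and members with them included Hif1a and Pfkm, which did not dip in Saline 3. The Adm window does hold CACGC, which reads GCGTG on the other strand, the form that was not searched.

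A list of 50 related genes of the same pathways was read alongside, and all 50 were tested. None of the 50 passed the threshold in either direction. An unadjusted p under 0.05 by edgeR was found for 2, Hk3 and Ddit4, both lower in TLQP21. Of all tested genes 0.795% were higher and 2.26% lower at that level. Of the 50, 17 were above 0 and 33 (66%) below 0, with a median log2 fold change of -0.04. Of all tested genes 49.4% were below 0. The count of those below 0 was 26 to 36 when single libraries were left out. Vegfa, the angiogenic growth factor and a classical hypoxia target, had 679, 659, 662 and 556 CPM in TLQP21 libraries 1 to 4, against 886, 799, 537 and 812 CPM in Saline libraries 1 to 4. TLQP21 4 and Saline 3 were lowest and Saline 1 highest (log2 fold change -0.25, SE 0.15). In Saline 3 the respiratory-chain assembly factor Higd1a stood at 53.7% of its median, the endoplasmic reticulum oxidase Ero1a, listed as Ero1l, at 53.8% and the oxygen sensor Egln1 at 62.9%. These were the lowest of the 50 in that library, where the median gene of the 50 stood at 96.5% of its own median. Saline 3 was the lowest library for 16 of the 50 (32%), against 11.4% of all tested genes.

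Among the related genes with the smallest p, Hk3, the hexokinase of myeloid cells, had 54.7, 33.8, 32.7 and 20.9 CPM in TLQP21 libraries 1 to 4, against 69.5, 87.2, 42.01 and 57.8 CPM in Saline libraries 1 to 4. TLQP21 1 lay within the Saline range and the other TLQP21 libraries below it (log2 fold change -0.85, SE 0.29, unadjusted p 0.0154 by edgeR). Ddit4, an inhibitor of mTORC signalling that responds to hypoxia and to other stress, had 225, 188, 216 and 115 CPM in TLQP21 libraries 1 to 4, against 280.1, 241, 226 and 364 CPM in Saline libraries 1 to 4. Every TLQP21 library lay below every Saline library, by a margin of less than 1 CPM, with a log2 fold change of -0.58 (SE 0.22, unadjusted p 0.02501). Ddit4 was the only one of the 50 without overlap, beside 0.811% of all tested genes higher and 0.844% lower without overlap. Neither Hk3 nor Ddit4 passed after adjustment. The neutrophil and macrophage sums were, like Hk3 and Ddit4, lowest in TLQP21 4, at 294 and 1025 CPM. That library was also the lowest for 27.2% of all tested genes. The highest library was Saline 2 for Hk3, Saline 4 for Ddit4 and the neutrophil sum, and TLQP21 1 for the macrophage sum. The part of these cells in the values of Hk3 and Ddit4 was not tested.

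Eno3, the enolase of muscle, ran over 18.9 to 24.7 CPM in TLQP21 and 15.1 to 20.04 CPM in Saline (log2 fold change 0.27, SE 0.13), beside muscle markers of at most 1.702 CPM in sum. Arnt2, a partner of HIF-alpha in neurons, was scarce at 0.565 to 0.924 CPM in TLQP21 and 0.681 to 1.63 CPM in Saline. Slc2a3, the high-affinity glucose transporter of neurons and leukocytes, ran over 10.1 to 14.98 CPM in TLQP21 and 11.2 to 23.2 CPM in Saline (log2 fold change -0.38, SE 0.24).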

How the data were processed

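RNA from whole tumours was sequenced in 8 libraries, 4 TLQP21 and 4 Saline, as paired ends after NEBNext Ultra library preparation. The deposited values are whole-number read counts per gene, raw and not normalized. The submitters' processing notes name GRCm38 as build, HISAT2 2.0.5 among the tools, and further DESeq2 1.32.0 and featureCounts 1.5.0-p3. The strand setting of the counting is not given in the sources used here. Gene lengths are those of the deposited table. Groups and replicate numbers come from the labels' titles.

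Counts were tested in R 4.3.3 with edgeR 4.0.16 (filterByExpr by group, TMM scaling, quasi-likelihood test, Benjamini-Hochberg over all 18238 tested genes, threshold 0.05). Totals were 28358465 to 33536087 counts per library. CPM were computed on the TMM-scaled sums of the tested genes. Intervals are the log2 fold change with its standard error, at 95%. DESeq2 1.42.0, limma 3.58.1 (voom with sample quality weights), other scalings and filters, a replicate block, sex-linked and acinar covariates and single libraries left out were tried as alternatives. The analysis code was tested on simulated data.

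The members and lists were chosen with earlier results of these data known. Values in every library are given for the 8 members of lowest unadjusted p, and for Slc2a1, Hk2, Ldha, Car9, Pdk1 and Hif1a, and among related genes for those with the smallest p and Vegfa, some of them by range. Replicate numbers were not taken to pair the libraries. No 2 libraries agreed within sampling noise (lowest chi-square per degree of freedom 20.9). Counts of Ero1a were read under its older name Ero1l. Start positions used for promoters are those of RefSeq on GRCm38.p6, which need not be the start used in these tumours. A further related gene that this rule names is not reported here.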

Additional observations from a re-analysis of the deposited data

Results flagged for a closer look

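Of 78 groups of 4 libraries tested for a value far from the others, 6 held one, and chance gives about 1 in 20. Saline 3 stood low for Aldoa (675 CPM, the other Saline libraries 918 to 936 CPM), for Ldha (790.2 CPM, the others 1070.1 to 1112 CPM) and for Pkm (1448 CPM, the others 1805 to 1849 CPM). Pkm was high in TLQP21 3 at 1829.8 CPM, against 1636 to 1667 CPM in the other TLQP21 libraries. Gapdh was high in TLQP21 2 at 224 CPM, against 33.3 to 46.3 CPM in the others. Vegfa was low in TLQP21 4 at 556 CPM, against 659 to 679 CPM in the others.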

How the results depend on the processing

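None of the 33 rows passed the threshold under any alternative run, and the lowest adjusted p of a row over all of them was 0.345. Over all genes 4 were called by DESeq2 and 1 by voom, all lower in TLQP21, and 0 with each library left out. At an unadjusted p under 0.05 there were 558 genes by edgeR, 549 by edgeR with the replicate block, 745 by DESeq2 and 1932 by voom. Of the 33 rows, 0 were under it by edgeR, 2 with the replicate block, 1 by DESeq2 and 4 by voom. All of these were below 0 except under voom, where 3 were. The count of rows below 0 was 15 to 26 with single libraries left out, and 26 to 36 for the related genes. Among the 39 named genes, the sign of the log2 fold change turned in 35 of 312 cases with a library left out and in 22 of 427 others, with 24 genes never turning.

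The values that turned were 0.011 for Pgk1 and 0.00568 for Pgam1 under upper-quartile scaling. On library totals they were 0.0102 for Tpi1, 0.0246 for Pgk1, 0.0193 for Pgam1 and 0.013 for Mxi1. With voom they were 0.00705 for Tpi1, -0.103 for P4ha1, -0.112 for Kdm3a, -0.0797 for P4ha2 and -0.118 for Ankrd37. With the sex-linked covariate Pgk1 was at 0.00844, and with the acinar covariate Pgk1 was at 0.00195, Pgam1 at 0.00569 and Mxi1 at 0.00497. Without Saline 3 and TLQP21 4 together, an alternative chosen after seeing the data, P4ha1 was at -0.168, Kdm3a at -0.0713, Pdk1 at -0.0538, P4ha2 at -0.225 and Ankrd37 at -0.255. In that fit 28 of the 33 rows were below 0, beside 50.3% of all genes. An unadjusted p under 0.05 by edgeR was found there for 9 rows, all below 0, and for 771 of all 18322 genes tested. None of the rows passed the adjusted threshold, and the smallest adjusted p was 0.987. The cause of these changes was not tested.

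With single libraries left out, the values ran from -0.0978 to 0.029 for Tpi1, -0.117 to 0.0873 for Pgk1, -0.0979 to 0.0449 for Pgam1, -0.203 to 0.0494 for Ndrg1, -0.0539 to 0.163 for P4ha1, -0.273 to 0.0399 for Egln3 and -0.17 to 0.0239 for Pfkp. They ran from -0.0557 to 0.172 for Kdm3a, -0.0243 to 0.115 for Pdk1, -0.204 to 0.163 for P4ha2, -0.0964 to 0.0619 for Mxi1, -0.451 to 0.086 for Adm, -0.231 to 0.307 for Ankrd37, -0.165 to 0.329 for Eno2 and -0.0139 to 0.239 for the second Aldoa row.

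With the replicate block 0 genes were called, 21 rows were below 0, and Pgk1 was at 0.0178 and Pgam1 at 0.00163. The deviations of same-numbered libraries had correlations of 0.11, 0.19, 0.27 and -0.05, not all above 0.1, and same-numbered libraries also share the sex-linked kind. With 4 libraries a group, the intervals reached past a 2-fold lower level in TLQP21 for Pfkfb3, and past 2-fold in both directions for Gapdh.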
